A study of Mus musculus with 9 samples.

Results

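mmu-miR-191-5p, mmu-miR-191-3p, mmu-miR-425-5p and mmu-miR-425-3p (mmu marks mouse and is left out below) are the arms of the hairpins mir-191 and mir-425, which lie next to each other at the Dalrd3 gene. They were found by name, as 4 of the 1915 mature miRNA names in a table of small RNA read counts from mouse milk fat. All 4 were tested. The table covers 9 first-litter ICR (CD1) dams, an outbred mouse stock, with 1 library from each. In the control group (5 dams) fat supplied 10% of dietary energy, at 3.85 kcal per g, and in the high-fat group (4 dams) it supplied 60%, at 5.24 kcal per g. Sucrose supplied 7% in both. Feeding began at 4 weeks of age, 4 weeks ahead of mating, and went on until milking at lactation day 10. Until mating, cages held 2 females of the same diet, and cage mates cannot be identified from the labels.

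A microRNA is cut from a hairpin in a longer transcript, and usually 1 arm is kept in an Argonaute protein while the other is degraded. The kept arm finds its target mRNAs mainly through its seed, bases 2 to 8. miR-191 and miR-425 are broadly expressed, are known from breast cancer cells in which estrogen raises their common transcript, and serve as reference miRNAs in many assays. miR-425-5p is also known to repress the mRNA of atrial natriuretic peptide. Dalrd3 encodes a protein that helps to methylate arginine tRNAs. Milk fat globules carry cytoplasm of the milk-secreting epithelial cell, so their small RNA is used as a sample of that cell.

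The mature sequences are shown because they define each name and set which other miRNAs share a target site. The sequences against which reads were counted are not given. Those below are RefSeq entries (GRCm38.p6), written 5′ to 3′ with the seed in capitals.
miR-191-5p: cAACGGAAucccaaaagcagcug
miR-191-3p: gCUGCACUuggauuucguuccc
miR-425-5p: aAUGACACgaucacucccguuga
miR-425-3p: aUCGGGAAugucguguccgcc
The seed of each member differs from those of the other 3, so the cluster mates are not a seed family. The longest run of bases shared by any pair of members was 5, between miR-191-5p and miR-425-3p. Among the RefSeq mature miRNAs, no other name had the seed of miR-191-5p, miR-191-3p or miR-425-3p. The seed of miR-425-5p recurs in miR-489-3p, from chromosome 6.
miR-489-3p: aAUGACACcacauauauggcagc
miR-489-3p had 0 counts in all 9 libraries, so among the 1623 names of the table with a RefSeq sequence, miR-425-5p was the only one with this seed that had counts. A count of 0 allows a share of up to 0.000358% in the smallest library.

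The hairpins are printed with both mature arms in capitals, to show the duplex from which the arm ratios below arise.
mir-191: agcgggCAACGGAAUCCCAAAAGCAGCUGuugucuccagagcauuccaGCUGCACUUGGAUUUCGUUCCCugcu
mir-425: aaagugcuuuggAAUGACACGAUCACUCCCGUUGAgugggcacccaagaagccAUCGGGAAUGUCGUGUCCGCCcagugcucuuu
In minimum free energy folds by RNAfold, 38 of the 45 arm bases of mir-191 and 31 of the 44 arm bases of mir-425 were paired. The fold energies were -35 and -31.7 kcal per mol. The arms are 21 to 23 bases long, so read counts were compared between them without scaling to length. Whether each sequence entered the libraries equally well was not tested, so ratios between arms or mates are ratios of reads.

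Both hairpins lie on the plus strand of chromosome 9 in GRCm38, mir-191 at 108568319 to 108568392 and mir-425 at 108568777 to 108568861, with 384 bases between them. The annotations do not agree on their host. In RefSeq the Dalrd3 gene spans 108567484 to 108572773 and so contains both hairpins. In GENCODE M21 Dalrd3 runs from 108569886 to 108572774 and starts 1025 bases beyond mir-425. There both hairpins lie in the noncoding gene 4833445I07Rik, at 108567533 to 108569174, within the exon of a transcript that has 1 exon, while mir-191 also lies in the intron of a shorter transcript. The start site that RefSeq's promoter table gives for Dalrd3 is likewise 1031 bases beyond mir-425. The description as intronic to Dalrd3 therefore depends on the annotation and transcript chosen. GENCODE also lists a miRNA gene on the minus strand over mir-191, Gm24083. The use of strand in counting is not stated, so reads from that strand cannot be told apart from those of mir-191.

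**Figure D1:**
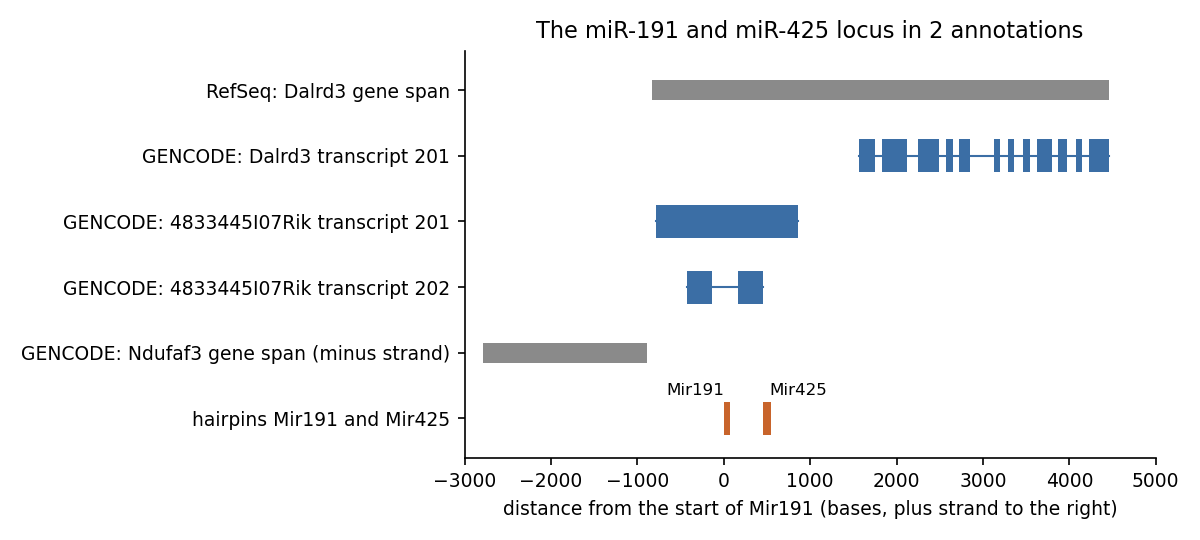
Map of the miR-191 and miR-425 locus, with the distance from the start of mir-191 in bases on the horizontal axis, exons as blocks, introns as lines and gene spans as grey bars. Both hairpins fall inside the RefSeq span of Dalrd3 and before its GENCODE start.

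Library totals, over mature names, ran from 837817 to 3897109 counts. All 6 markers of the secretory epithelium, among them miR-148a-3p and the miR-200 family, were present in every library and together held 26.3% to 32.1% of the counts. The 7 leukocyte markers, led by miR-223-3p, held 0.0654% to 0.106% in control libraries. High-fat libraries 1 and 3 stood apart with 1.23% and 0.353%, while high-fat libraries 2 and 4 had 0.0314% and 0.0605%. The 3 red cell markers reached 0.0616% in high-fat library 3, and the 2 endothelial markers stayed at or below 0.00291% in every library. In such bulk samples, fewer cells of a type and less RNA per cell cannot be told apart.

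The 4 arms differed widely in level and kept 1 order, with miR-191-5p highest, then miR-425-5p, miR-425-3p and miR-191-3p, in 9 of 9 libraries. The share of miR-191-5p was 0.149% ± 0.0211 for the controls (SD, n = 5) and 0.152% ± 0.0314 for the high-fat dams (SD, n = 4). It was 53rd among the 828 names with counts, by mean share. miR-425-5p held 0.0715% ± 0.00549 and 0.0691% ± 0.00957 and was 71st. The minor arms were far lower, miR-425-3p at 0.00530% ± 0.00106 and 0.00413% ± 0.000866 and miR-191-3p at 0.000683% ± 0.000270 and 0.000686% ± 0.000333. Together the 4 arms reached 0.227% ± 0.0267 (SD) in the controls and 0.226% ± 0.0371 in the high-fat dams. Of the reads from both hairpins, miR-191-5p made up 60.1% to 69.7%, miR-425-5p 28.1% to 38.0%, miR-425-3p 1.67% to 3.10% and miR-191-3p 0.127% to 0.483% in the single libraries.

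The series is titled for the impact of the diet on secreted milk small RNA, and none of the 4 arms passed the test for a difference between diets. The test was limma-voom over all 312 names that passed the filter on low counts. It called 0 names (0%) at an adjusted p of 0.05, while 32 names (10.3%) and 0 of the 4 arms had an unadjusted p below 0.05. In 15 names (4.81%) all high-fat libraries lay above or below all controls, which held for 0 of the 4 arms. Levels are given as CPM, counts scaled for library size and composition, and a positive log2 fold change means higher in high-fat milk.

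miR-191-5p, the major arm of mir-191, measured 1655, 1292, 1560, 1298 and 1655 CPM in control libraries 1 to 5. In high-fat libraries 1 to 4 it measured 1720, 1426, 1723 and 1198 CPM. High-fat libraries 1 and 3 were the highest of all 9 and high-fat library 4 the lowest, so the diets overlapped and the high-fat values enclosed the controls. The log2 fold change was 0.016 ± 0.16 (SE), with a 95% interval of -0.33 to 0.37 (limma-voom adjusted p = 0.955). The 2 highest libraries are those with the most leukocyte marker reads, and without both the log2 fold change was -0.14 (limma-voom adjusted p = 0.752). Leaving out the 2 highest high-fat values lowers the fold change whatever else sets these libraries apart. The part of the leukocyte reads in the level was not tested. The value was below 0 without any 1 of control libraries 2 and 4 and high-fat libraries 1, 2 and 3, the lowest being -0.094 without high-fat library 3, and it was 0.10 without high-fat library 4.

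miR-425-5p, the major arm of mir-425, measured 739, 684, 748, 654 and 747 CPM in control libraries 1 to 5. It measured 720, 575, 708 and 758 CPM in high-fat libraries 1 to 4. High-fat library 2 was the lowest and high-fat library 4, the lowest library for miR-191-5p, was narrowly the highest. This place depends on the scaling. By share of the library total, high-fat library 4 had 0.0732%, below high-fat library 1 (0.0782%) and control libraries 1, 3 and 5. The log2 fold change was -0.059 ± 0.13, with a 95% interval of -0.35 to 0.23 (limma-voom adjusted p = 0.873). It was -0.027 without control library 3 and -0.13 without high-fat library 4.

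miR-425-3p, the minor arm of mir-425, measured 64.5, 44.2, 50.7, 62.5 and 42.8 CPM in control libraries 1 to 5. It measured 43.8, 34.1, 51.1 and 35.8 CPM in high-fat libraries 1 to 4. High-fat libraries 2 and 4 lay below all controls and the other 2 within their range. The log2 fold change was the largest in size of the 4 arms, -0.41 ± 0.22, with a 95% interval of -0.89 to 0.079. Its unadjusted p was 0.0924 and its adjusted p 0.621 by limma-voom. It had 36 to 140 counts in a library, so counting error alone gives an SD of 0.16 on the log2 scale, against 0.27 observed between dams.

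miR-191-3p, the minor arm of mir-191, had 12, 12, 18, 4 and 7 counts in control libraries 1 to 5. High-fat libraries 1 to 4 had 23, 37, 10 and 6. These correspond to 6.91, 9.81, 6.52, 2.55 and 8.32 CPM in control and 9.07, 9.77, 5.06 and 3.26 CPM in high-fat milk. The high-fat values all lay within the control range. The log2 fold change of 0.15 ± 0.49 had a 95% interval of -0.93 to 1.24 (limma-voom adjusted p = 0.892). In control library 4 the 4 counts are a share of 0.000250% with a 95% Wilson interval of 9.72e-05% to 0.000643%, which covers counting error only. The interval of the fold change does not exclude a log2 rise of 1. Counting error alone gives an SD of 0.47 on the log2 scale, against 0.71 observed between dams.

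**Figure D2:**
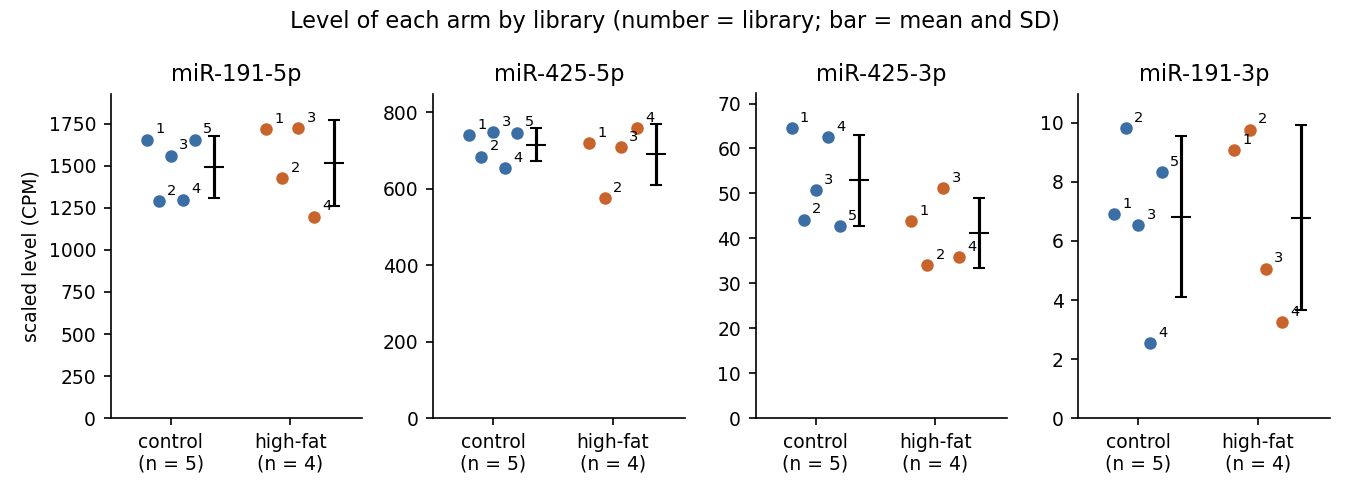
Scaled level (CPM) of each arm in each library, by diet; numbers name the library and bars give the mean and SD. The diets overlap for all 4 arms. High-fat library 4 is the lowest for miR-191-5p and, by scaled level but not by share of the library total, the highest for miR-425-5p.

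The ratio of the cluster mates within a library does not depend on its depth or scaling. miR-191-5p exceeded miR-425-5p 2.24, 1.89, 2.08, 1.98 and 2.22 times in control libraries 1 to 5. In high-fat libraries 1 to 4 it did so 2.39, 2.48, 2.43 and 1.58 times. High-fat libraries 1, 2 and 3 lay close together above all 5 controls, and high-fat library 4 lay below all of them. The mean log2 ratio was 1.06 ± 0.10 for the controls (SD, n = 5) and 1.13 ± 0.31 for the high-fat dams (SD, n = 4). The difference of 0.072 had a two-sided exact permutation p of 0.667, which was also its adjusted p over the 2 mate ratios tested. Its 95% interval, by limma over 23 ratios of cluster mates, was -0.28 to 0.42.

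High-fat library 4 decided this ratio. Without it the high-fat mean was 1.28 ± 0.027 (SD, n = 3) and the difference 0.23. No test is given for this, since the library was left out for its position. Without high-fat libraries 1 and 3, which had the most leukocyte marker reads, the difference was -0.070. Both lay above all controls in this ratio, so leaving them out lowers the difference in any case. High-fat library 4 also held the most stromal marker reads, 2.57% against at most 1.92% in any other library, nearly all of them miR-143-3p. The part of the leukocyte or stromal reads in the ratio was not tested.

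Among the minor arms the order of the mates was the opposite. miR-191-3p had 0.0408 to 0.222 times the reads of miR-425-3p in control and 0.0909 to 0.287 times in high-fat libraries. The mean log2 ratio was -2.99 ± 0.93 for the controls (SD, n = 5) and -2.67 ± 0.77 for the high-fat dams (SD, n = 4), and the exact permutation p (two-sided) was 0.667, unadjusted and adjusted. The 95% interval of the difference was -0.85 to 1.5 by limma, and the ratio rests on the few counts of miR-191-3p. The difference of 0.33 became -0.040 without control library 4.

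The 5p arm had more reads than the 3p arm for both hairpins in every library, but to very different degrees. miR-191-5p exceeded miR-191-3p 240, 132, 239, 509 and 199 times in control libraries 1 to 5. In high-fat libraries 1 to 4 it did so 190, 146, 340 and 368 times. miR-425-5p exceeded miR-425-3p 11.5, 15.5, 14.7, 10.5 and 17.4 times in control libraries and 16.5, 16.9, 13.8 and 21.2 times in high-fat libraries. The ranges of these ratios did not overlap. Of 101 arm pairs with both arms tested, 63 had the 5p arm higher on average, and mir-191 was 14th and mir-425 39th in 5p excess.

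Neither arm ratio passed the test for a difference between diets. limma over the 101 arm pairs called 0 (0%) at an adjusted p of 0.05, and 7 (6.93%) had an unadjusted p below 0.05, neither mir-191 nor mir-425 among them. The log2 ratio of mir-425 was 3.76 ± 0.30 for the controls (SD, n = 5) and 4.07 ± 0.25 for the high-fat dams (SD, n = 4). The difference of 0.31 ± 0.25 (SE) had a 95% interval of -0.24 to 0.86 and an adjusted p of 0.743 by limma. It was 0.20 without high-fat library 4 and 0.47 without high-fat libraries 1 and 3. For mir-191 the log2 ratio was 7.81 ± 0.67 and 7.86 ± 0.61, a difference of 0.054 ± 0.40 with an interval of -0.83 to 0.94 and an adjusted p of 0.999 by limma.

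**Figure D3:**
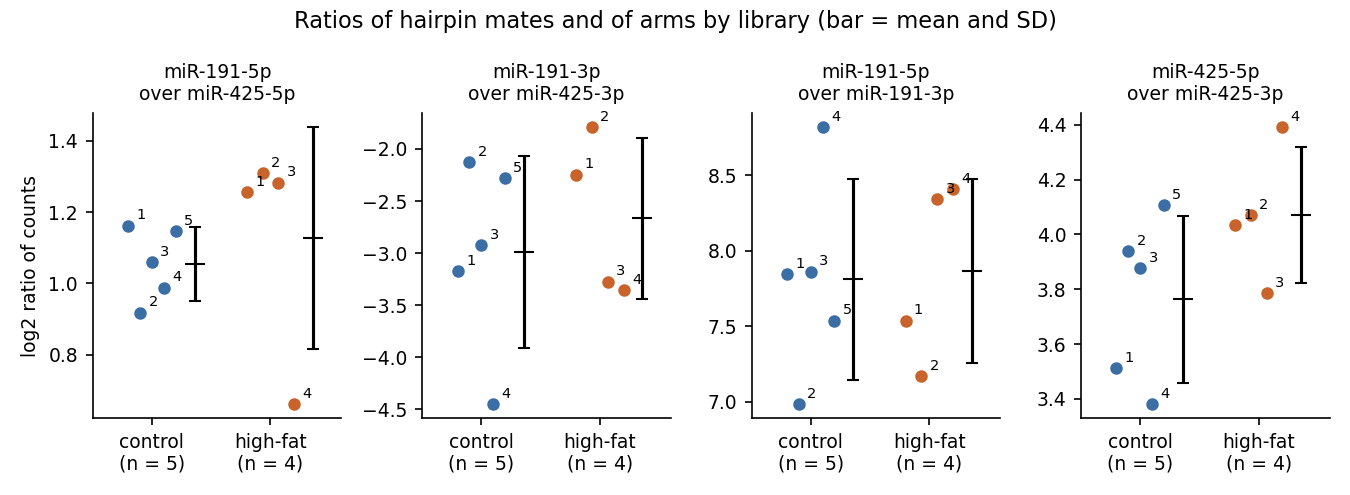
Log2 ratio of counts in each library by diet, for the mates on the 5p and 3p side (left pair of panels) and for the arms of each hairpin (right pair); numbers name the library, bars give the mean and SD, and each panel has its own scale. In the first panel high-fat libraries 1 to 3 lie above and high-fat library 4 lies below all controls.

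Because miR-191-5p and miR-425-5p are used as reference miRNAs, their spread between dams was set beside that of all tested names. The measure was the SD of log2 CPM pooled within diets. miR-425-5p had an SD of 0.13, the 6th lowest of 312, and none of the 50 tested names nearest to it in level had a lower one. Counting error alone would give 0.042. Without high-fat library 2 its SD was 0.078, the lowest of the 312. That library was left out as the lowest for miR-425-5p, so this rank favours the name and is not a fair comparison. miR-191-5p had an SD of 0.21, which ranked 37th, and 9 of the 50 names nearest to it in level had a lower one. The minor arms, at lower counts, had SDs of 0.27 for miR-425-3p and 0.71 for miR-191-3p, against a median of 0.44 over all tested names.

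Among 18 names in common use as references, all tested, miR-425-5p had the lowest SD and miR-191-5p the 5th lowest. Between them came miR-186-5p at 0.16, miR-30c-5p at 0.18 and miR-93-5p at 0.20, and miR-423-3p followed at 0.24. The red cell miRNA miR-451a had the highest, 1.69. The median SD of the 18 was 0.33. None of the 18 was called in either direction by limma-voom, 9 had fold changes above 0, and their median log2 fold change was 0.0059, against 158 of 312 (50.6%) and 0.0042 over all tested names. The fold changes of the list ran from -0.50 ± 0.35 (SE) for miR-320-3p to 0.31 ± 0.97 for miR-451a.

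**Figure D4:**
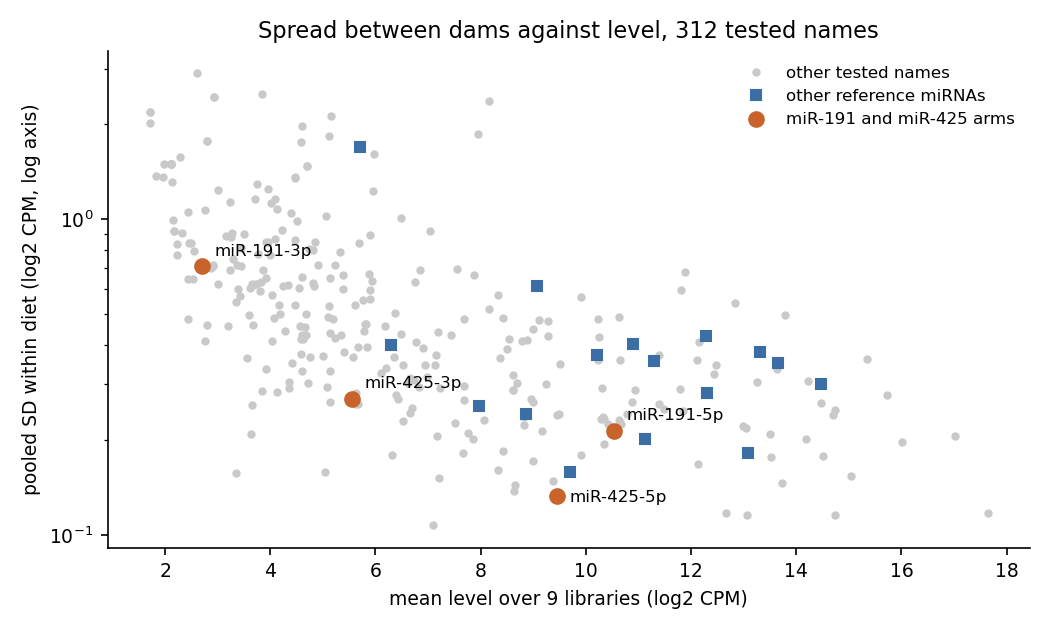
Pooled SD of log2 CPM within diets (log axis) against mean level in log2 CPM for the 312 tested names, with the other reference miRNAs as squares. miR-425-5p, at 0.13, is the lowest of the reference names, and miR-191-5p lies at 0.21.

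No clear relation between the levels of miR-191-5p and miR-425-5p was seen from dam to dam. Over 9 libraries Pearson's r was 0.257 with an exact permutation p of 0.543, and Spearman's rho was 0 with an exact permutation p of 1. Adjusted over the 6 pairs of members these were 0.651 and 1. Without control library 2 and high-fat library 4, the libraries farthest from the median of miR-191-5p, r was 0.671. Over all 6 pairs of members r ran from -0.328 to 0.448 and the adjusted exact permutation p of r from 0.651 to 0.701. The levels in a library share its depth and scaling.

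To see how tightly clustered miRNAs keep their ratio, 26 pairs of cluster mates were listed, of which 22 had both members tested. The pair of miR-191-5p and miR-425-5p is 1 of the 22, so the medians below include it. The log2 ratio of miR-191-5p to miR-425-5p had a pooled SD of 0.22, the 8th lowest of the 22, against 0.051 from counting error alone and a median of 0.29. The lowest SDs were those of miR-221-3p with miR-222-3p, 0.079, and miR-93-5p with miR-106b-5p, 0.13. The highest were those of miR-195a-5p with miR-497a-5p, 1.30, and miR-125b-5p with miR-100-5p, 0.95. Counting error alone would give these 2 pairs 0.47 and 0.17, so the order of the pairs also reflects their counts. Some of the listed miRNAs have a further gene copy elsewhere. The median r between mates was 0.280, near the 0.257 of miR-191-5p and miR-425-5p, while miR-221-3p and miR-222-3p had an r of 0.966 over the 9 libraries.

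**Figure D5:**
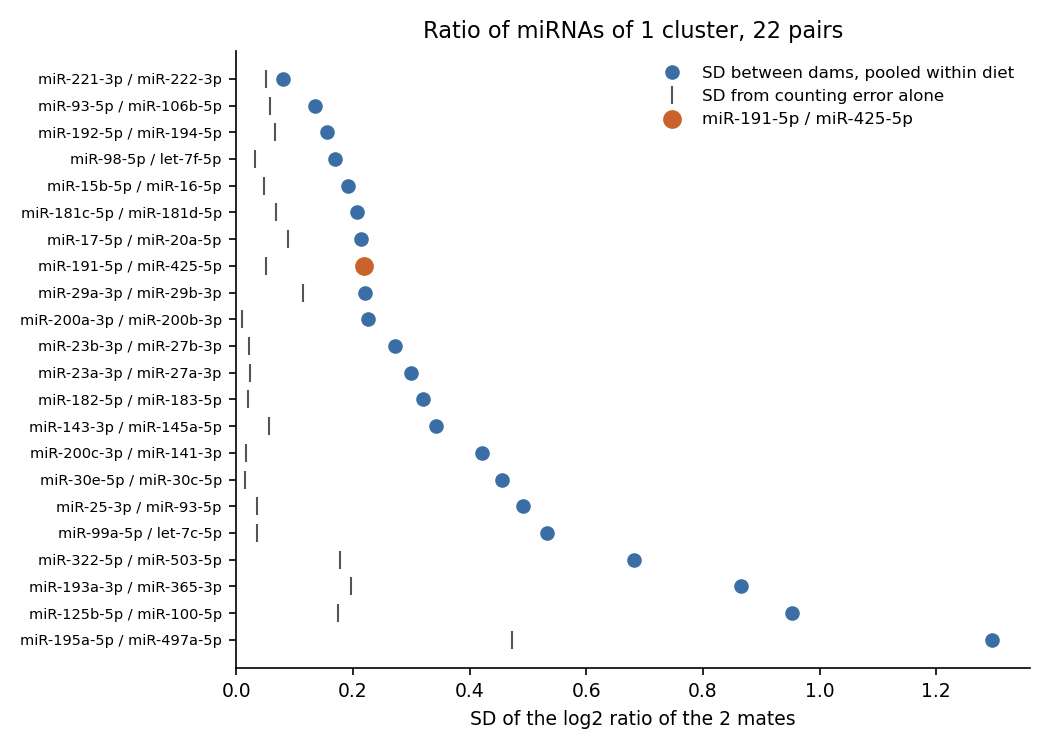
Pooled SD within diets of the log2 ratio of cluster mates (points), beside the SD that counting error alone would give (ticks), for 22 pairs. The ratio of miR-191-5p to miR-425-5p, at 0.22, is the 8th lowest.

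The tested names whose levels followed those of miR-191-5p most closely over the 9 libraries were miR-15b-5p, miR-16-5p and miR-155-5p, with r of 0.840, 0.777 and 0.738. miR-15b-5p and miR-16-5p are cluster mates of each other and repress cell cycle genes. miR-155-5p is a miRNA of activated leukocytes and measured 44.9 and 58.7 CPM in high-fat libraries 1 and 3, against at most 23.6 CPM elsewhere. miR-425-5p itself was 90th of 311 in likeness to miR-191-5p. The names most like miR-425-5p were miR-467d-3p and miR-467a-3p, which have identical values, and miR-467b-5p, with r of 0.929, 0.929 and 0.893. These had 0 to 59 counts in a library. No p is given for these relations, since the names were picked for their r.

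miR-191 and miR-425 are listed with 6 miRNAs known to target the mRNA of estrogen receptor alpha, and 7 of these 8 names were tested. None of the 7 was called in either direction by limma-voom, 3 had fold changes above 0, and their median log2 fold change was -0.059. Over all 312 tested names 0 were called, 158 (50.6%) had fold changes above 0, and the median was 0.0042. The list includes the major arms of mir-191 and mir-425, and its median is the value of the latter. Of the 7, miR-222-3p had the lowest fold change, -0.48 ± 0.20 (SE), with a limma-voom adjusted p of 0.436. miR-18a-5p had the highest, 0.39 ± 0.24, with an adjusted p of 0.650. The major arms of mir-191 and mir-425 had the lowest SDs between dams of the 7. miR-206-3p, a muscle miRNA, did not pass the filter on low counts.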

How the data were processed

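Per the labels' protocols, the milk fat layer was rinsed in PBS and spun again to clear cells, and NEXTflex small RNA libraries were run on a HiSeq2500. The deposited table holds the authors' raw read counts, 1 row per precursor and mature name. The authors used cutadapt 1.9.1 and build GRCm38, per the submitters' processing notes. Not given in the sources used here are the aligner, the counter, the miRBase release, the use of strand and any merging of PCR copies. The Wilson interval and the limits from a count of 0 cover counting error only, while limma intervals rest on the spread between dams.

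Separators in 833 cells were removed. The highest count per name and library was kept. Each of the 4 members had 1 row. Of the 1915 names, 1623 matched a RefSeq sequence. In all 16 pairs within a diet, libraries differed by a chi-square per degree of freedom of at least 50.2. None was therefore a repeat of another of its diet, and pairs across the diets were not compared. Because of the separators the columns had been recorded under a unit other than counts, and limma-voom was chosen for that reason. It was fitted to the cleaned counts, to which count models could also have been fitted but were not.

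A name was tested if 4 or more libraries reached 5.25 CPM (10 counts in the median library) and its total reached 15 counts. Libraries were scaled by trimmed means of M values (30% and 5% trimmed). limma 3.58.1 in R 4.3.3 fitted log2 CPM with voom weights and diet as the only term. Tests were two-sided, with Benjamini-Hochberg adjustment over all tested names. Ratios used counts plus 0.5. Arm ratios were fitted with limma, and mate ratios were tested by exact permutation with scipy 1.17.1, where no p below 0.0159 can be reached with all 9 libraries. Hairpins were folded with RNAfold 2.7.2. The fits were tested on simulated data.

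Named were the 4 members, seed mates, the 3 names most like each major arm, and from each list the extremes and names near the members. The members, lists and tests were chosen with earlier results of these data known. Alternatives covered scaling, filter, weights, row handling, pseudocount, denominators, each library left out and the replicate number as a block.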

Additional observations from a re-analysis of the deposited data

Results flagged for a closer look

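Groups of values were searched for a library whose gap to its nearest neighbour was large against the range of its diet. The search covered 16 groups, the shares and ratios of the 4 arms in each diet, and 1 library stood out, where 1 in 20, or 0.8, is due by chance. The log2 ratio of miR-191-5p to miR-425-5p was 0.66 in high-fat library 4, while high-fat libraries 1 to 3 had 1.26, 1.31 and 1.28. Its gap to the nearest of these was 0.916 of the range. In this library miR-191-5p was at its lowest scaled level and miR-425-5p at its highest, and the log2 5p to 3p ratio of mir-425, 4.39, was also the highest of all 9. By share of the library total miR-425-5p was not at its highest there, with 0.0732% against 0.0782% in high-fat library 1.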

How the results depend on the processing

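No alternative called any of the 4 arms by limma-voom, with adjusted p between 0.396 and 0.996. The log2 fold changes of miR-425-5p and miR-425-3p kept their sign in all 17 alternatives, and with single libraries left out ran from -0.13 to -0.027 and from -0.54 to -0.34. That of miR-191-5p turned to -0.022 with library quality weights, -0.029 with the rows of a name summed and -0.14 without high-fat libraries 1 and 3 (added after seeing the data), and ran from -0.094 to 0.10 with single libraries left out. That of miR-191-3p turned to -0.013 with limma-trend and ran from -0.21 to 0.36 with single libraries left out, below 0 without control library 4 or high-fat library 2. The arm ratio difference of mir-191 was -0.020 without high-fat libraries 1 and 3 and -0.15 to 0.31 with single libraries left out, below 0 without control library 2 or 5 or high-fat library 3 or 4. It could not be fitted at a mean of 50 counts in both arms. The mate ratio difference was -0.070 without high-fat libraries 1 and 3 and 0.011 to 0.23 with single libraries left out. For the 3p mates it was -0.040 to 0.56. The arm ratio difference of mir-425 ran from 0.20 to 0.40. A pseudocount of 5 in place of 0.5 moved the arm ratio difference of mir-191 from 0.054 to 0.21 and that of the 3p mates from 0.33 to 0.20, and left mir-425 at 0.33 and the 5p mates at 0.074. The cause of these changes was not tested.

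With the replicate number as a replicate block, the arm ratio difference was -0.014 for mir-191 and 0.39 for mir-425, the mate ratio difference was 0.095 for the 5p arms and 0.50 for the 3p arms (limma adjusted p = 0.169, 95% interval -0.086 to 1.09), and no arm was called. Control library 5 has no high-fat partner and adds nothing to the difference there, so these 4 ratio differences equal those without it, and their move is that of leaving it out. Deviations of same-numbered dams correlated at -0.159 to 0.197, and 2 of 4 matched their own number best. These 4 pairs cannot exclude a shared batch.

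Of the 312 tested names, 0 were called in the main analysis, 2 with limma-trend, 2 with quality weights and 3 with the block. Without the filter on low counts 828 names were tested, of which 4 were called and 147 had an unadjusted p below 0.05 by limma-voom. With single libraries left out, 0 to 4 names were called. The 4 came without control library 5, which the block also sets aside. The SD of miR-425-5p ran from 0.078 to 0.14 with single libraries left out. Without miR-146b-5p and miR-148a-3p in the denominator, control and high-fat shares were 0.226% and 0.231% for miR-191-5p, 0.00103% and 0.00104% for miR-191-3p, 0.108% and 0.104% for miR-425-5p, and 0.00803% and 0.00625% for miR-425-3p. Over all rows of the table, those of miR-425-5p were 0.0616% and 0.0591%. Depth limits miR-191-3p most, at 4 to 37 counts in a library.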
